A study of Nicotiana tabacum with 15 samples.

Results

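Root transcriptomes of a pair of tobacco (Nicotiana tabacum) parents were compared: J (Jiucaiping No.2), the pollen parent, against K (K326), the seed parent of the hybrid KJ. A gene entered the comparison when 3 or more of the 6 libraries of J and K reached 1 FPKM, which left 35368 of the 69500 gene models in the deposited table, and 50157 models were above 0 in at least 1 of the 6 libraries. For the genes that differed between the parents, the level in the F1 hybrid KJ was placed against both. FPKM scales the fragments counted for a gene by its length and by the mapped fragments of the library.

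The series holds 15 libraries from seedlings at the stage of 6 true leaves, raised in a greenhouse by the floating method: 3 each of KJ, of its parents J and K, and of GJ and G (G70), the other cross and its seed parent. J is also the pollen parent of GJ, and none of the lines carried a transgene or received a treatment according to the labels. The labels give young root as the tissue while the titles name leaf. The study describes root, which was followed here, and the tissue could not be checked against marker genes because no table at hand pairs the gene IDs with names. Whether 1 plant or several went into a library is not given in the sources used here, and the p-values therefore reflect library-to-library spread, which may be technical.

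Cultivars of a species differ in gene sequence, in gene content and in the regulation of shared genes, and a transcript that is high in one parent and absent from the other marks such a difference most plainly. In an F1 hybrid each parent contributes a copy of the genome, so a gene that is active from only 1 parental copy is often found near the middle of both parents, whereas a level like that of 1 parent is called dominance and a level beyond both is called overdominance. Roots of tobacco take up water and minerals and are the site of nicotine synthesis. In bulk tissue, fewer cells of a type and less RNA per cell cannot be told apart.

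Overall measures were compared between the libraries of the parents. Genes with at least 1 FPKM numbered 34716 ± 159 in J and 35145 ± 348 in K (SD, n = 3 each), and the 100 most abundant genes held 9.96 ± 0.597% of the summed FPKM in J and 10.3 ± 0.363% in K (SD, n = 3 each). An exact permutation test (two-sided) gave p = 0.2 and p = 0.5 (adjusted p = 0.4 and 0.5 over both measures), and since 0.1 is the smallest p that 3 against 3 libraries can give, the test could not have called a difference. The gap in the number of genes, J minus K, was -429.3, and -234.3 without replicate 2 of K. Replicate 2 of J and replicate 2 of K stood apart from the other 4 libraries on the first principal component of the 6 libraries, which held 45.6% of the variance, at 34.6 and 76.3 against -43.0 to -10.2. The second component, with 30.6%, separated J, at -34.7 to -29.8, from K, at 5.77 to 49.4. The file holds no read counts, so depth and counting error per gene are unknown. Over all 35368 genes the median difference of J minus K was -0.03 on the log2 scale.

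The parents differed in few genes, and more of them were lower in J than higher. With limma's moderated test, an adjusted p (Benjamini-Hochberg) up to 0.05 and a log2 fold change of 1 or more in size, 155 genes were called between J and K, which is 0.438% of the genes tested. Of these, 52 genes (0.147%) were higher in J and 103 genes (0.291%) were lower in J. A log2 fold change is here the difference between the means of log2(FPKM + 1), J minus K, so it understates the change of genes at low FPKM. At an unadjusted p of at most 0.05 with the same fold limit, 255 genes were higher and 291 lower in J. In all 155 called genes the 3 libraries of J lay beyond the 3 libraries of K, whereas this held for 5455 genes or 15.4% of all genes tested. The split moved with the libraries that stood apart. Replicate 2 of J, replicate 2 of K and replicate 1 of G had the highest median-of-ratios scaling factors, 1.088, 1.169 and 1.164, against 0.823 to 1.055 in the other 12 libraries, and without these 3 together 125 genes were called higher and 105 lower in J, and 106 of the 155 genes were among these 230. Without a single library the count of genes higher in J ranged from 34, without replicate 3 of J, replicate 1 of K or replicate 3 of K, to 58 without replicate 2 of K, and the count lower in J ranged from 73 without replicate 3 of J to 131 without replicate 2 of K.

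**Figure D1:**
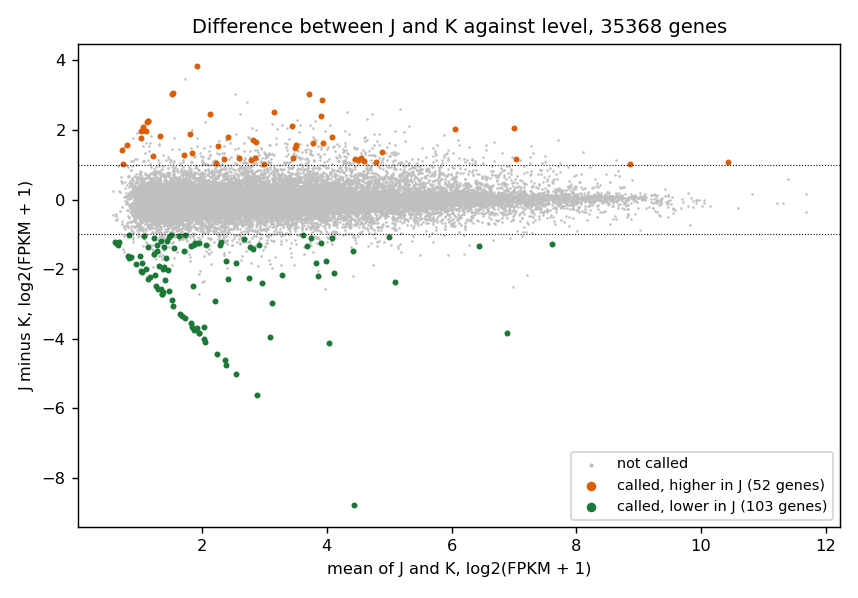
Difference J minus K against the mean level of J and K for the 35368 genes tested, both on the log2(FPKM + 1) scale, with 1 point per gene and dotted lines at the fold limit of 1. The 103 called genes lower in J reach larger differences than the 52 genes higher in J, and many lie along the lower left edge, where the level in J is near 0.

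Most of the called genes were of low to moderate abundance. The median of the higher parent was 10.1 FPKM in J for the genes higher in J and 6.68 FPKM in K for the genes lower in J. At least 5 FPKM in the higher parent was reached by 97 of the 155 genes, and at least 50 FPKM by 12, of which 5 were higher and 7 lower in J. A log2 fold change of 2 or more in size was found in 15 genes higher and 48 genes lower in J, and of 4 or more in 0 and 9 genes. Summed over the 52 genes higher in J, the libraries of J held 3569, 4544 and 3812 FPKM, against 1650, 1928 and 1415 FPKM in those of K. Summed over the 103 genes lower in J, they held 361.0, 404.6 and 409.0 FPKM, against 2545, 2487 and 2555 FPKM in K. Among genes with an adjusted p of at most 0.05, the fold limit left out 51, and the members just inside it were Nitab4.5_0000172g2190 at a log2 fold change of -1.01 and Nitab4.5_0004862g0060 at -1.01, while Nitab4.5_0000960g0070 at -0.99 and Nitab4.5_0004233g0040 at 0.99 lay just outside.

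The transcripts of the highest abundance that were higher in J were Nitab4.5_0000143g0170, Nitab4.5_0000143g0390 and Nitab4.5_0026736g0010. The files give no description for these or for any other gene named by ID alone. Nitab4.5_0000143g0170 had 1682, 2507 and 1900 FPKM in J, against 961.3, 1170 and 764.7 FPKM in K, a log2 fold change of 1.07 (SE 0.195, adjusted p = 0.0240 in limma's test). Its 3 libraries of KJ, at 627.3, 670.2 and 831.1 FPKM, reached down to the range of K and below it. Nitab4.5_0000143g0390 had 663.1, 694.4 and 640.3 FPKM in J, against 320.7, 343.2 and 315.1 FPKM in K, with a log2 fold change of 1.03 (SE 0.177, adjusted p = 0.0170), and lay below both parents in KJ at 277.6, 272.1 and 237.4 FPKM. Nitab4.5_0026736g0010 had 226.7, 306.6 and 251.8 FPKM in J, against 67.9, 75.5 and 45.9 FPKM in K (log2 fold change 2.05, SE 0.359, adjusted p = 0.0194), and spread from 108.5 over 123.9 to 252.1 FPKM in KJ. None of these 3 calls was stable to the loss of a library: that of Nitab4.5_0000143g0170 ended without replicate 2 or 3 of J or replicate 1 or 3 of K (adjusted p from 0.0899 to 0.141), and those of the other 2 genes ended without any single library of J or without replicate 1 or 3 of K (adjusted p from 0.0699 to 0.0895 and from 0.0588 to 0.119).

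Among genes with at least 5 FPKM in J, the strongest difference with a signal in both parents was that of Nitab4.5_0013316g0010. It had 43.9, 33.7 and 32.5 FPKM in J, against 2.81, 5.59 and 2.76 FPKM in K, a log2 fold change of 3.04 (SE 0.308, adjusted p = 2.16e-04 in limma's test). KJ stayed at the level of K, with 3.45, 2.09 and 4.91 FPKM, and so did G and GJ, at 1.01 to 2.83 and at 1.51 to 2.65 FPKM, so J alone stood high in this gene. Nitab4.5_0001523g0030 had 32.2, 32.9 and 58.1 FPKM in J, against 3.98, 6.22 and 3.95 FPKM in K (log2 fold change 2.85, SE 0.554, adjusted p = 0.0384), and 5.85, 1.67 and 0.13 FPKM in KJ. This call ended in the fit with the replicate number as a block (adjusted p = 0.0547) and without any single library of J or K or without replicate 2 of KJ (adjusted p from 0.0616 to 0.217).

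Genes with consecutive or near IDs moved alike in a further pair. Nitab4.5_0004383g0050 had 19.1, 19.0 and 22.9 FPKM in J, against 2.89, 2.02 and 3.47 FPKM in K (log2 fold change 2.51, SE 0.238, adjusted p = 1.05e-04 in limma's test). Its neighbour Nitab4.5_0004383g0040 had 20.5, 23.3 and 20.7 FPKM in J, against 4.38, 4.55 and 3.75 FPKM in K (log2 fold change 2.11, SE 0.115, adjusted p = 4.38e-07). Both lay between the parents in KJ, at 8.38, 7.62 and 4.25 FPKM for the first gene and at 10.03, 10.09 and 8.72 FPKM for the second, and KJ was called lower than J and higher than K in both. Nitab4.5_0004287g0100 behaved likewise, with 34.9, 35.7 and 30.2 FPKM in J, against 5.04, 7.04 and 4.65 FPKM in K (log2 fold change 2.41, SE 0.363, adjusted p = 0.00683), and with 16.1, 16.2 and 16.2 FPKM in KJ.

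Nitab4.5_0001937g0030 was higher in J than in K and higher still in KJ. It had 8.12, 10.5 and 9.12 FPKM in J, against 0.72, 1.5 and 0.51 FPKM in K (log2 fold change 2.45, SE 0.410, adjusted p = 0.0149 in limma's test). The KJ libraries, at 13.6, 12.2 and 19.7 FPKM, lay above all 6 parental libraries, and KJ was called against K (adjusted p = 7.68e-04) and not against J (adjusted p = 0.233). The call between the parents ended without any single library of J or without replicate 1 or 3 of K (adjusted p from 0.0510 to 0.0853).

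**Figure D2:**
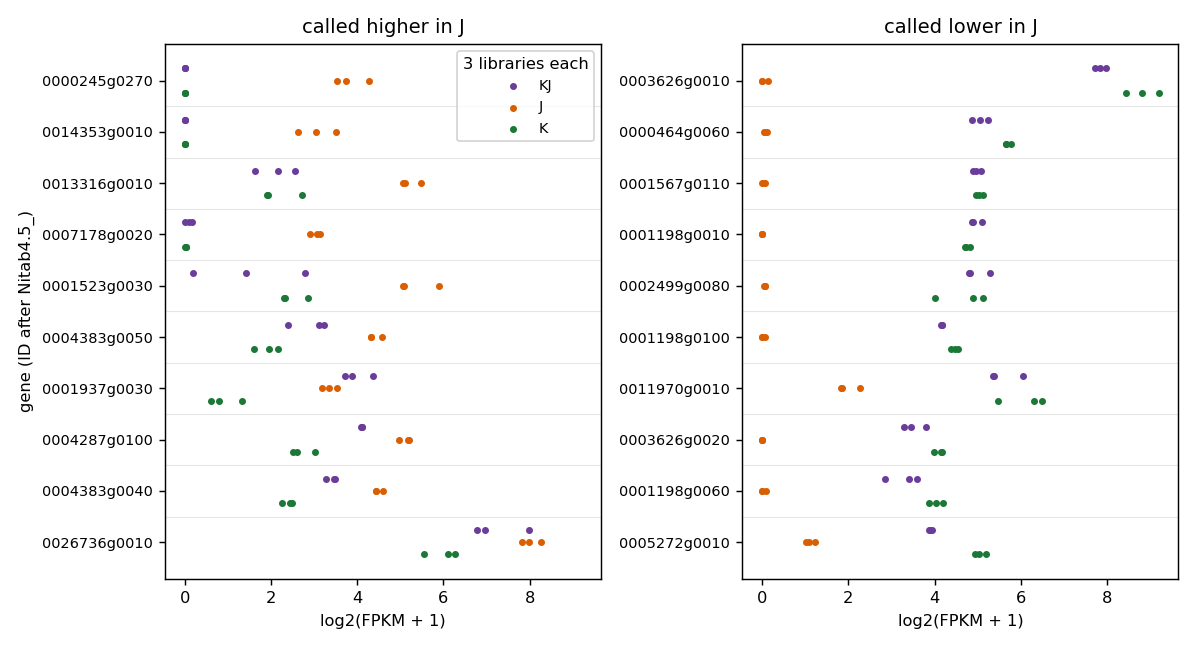
Level in each library, log2(FPKM + 1), of the 10 genes with the largest log2 fold change in each direction among called genes with at least 5 FPKM in the higher parent, with 3 points each for KJ, J and K. In the left panel J lies to the right of K in every gene, and in the right panel to the left of K, at or near 0 in 8 of the 10 genes, while KJ takes positions from the level of K to the level of J or beyond.

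The genes lower in J included several with high levels in K. Nitab4.5_0003626g0010 was the most abundant of them, listed at 0, 0.09 and 0 FPKM in J, against 447.9, 589.4 and 346.6 FPKM in K. Its log2 fold change of -8.78 (SE 1.54, adjusted p = 0.0197 in limma's test) depends on the added 1 and was -11.83 with 0.1 in its place. KJ lay between the parents at 253.3, 212.1 and 229.8 FPKM. The spread that entered this test came largely from GJ, with 0.04, 285.1 and 299.9 FPKM in its libraries: the call ended without any single library of J or K (adjusted p from 0.0599 to 0.0951), while the adjusted p was 3.44e-11 without replicate 1 of GJ and 5.48e-08 in a fit of J, K and KJ alone. Nitab4.5_0009459g0010 had 30.2, 31.7 and 29.3 FPKM in J, against 450.8, 408.0 and 495.8 FPKM in K (log2 fold change -3.85, SE 0.182, adjusted p = 8.09e-08), and 345.5, 459.5 and 360.1 FPKM in KJ, near the level of K. Nitab4.5_0000306g0370 had 102.2, 126.1 and 153.1 FPKM in J, against 336.8, 212.7 and 390.7 FPKM in K (log2 fold change -1.27, SE 0.233, adjusted p = 0.0259), and the libraries of KJ, at 261.7, 335.0 and 351.9 FPKM, fell within the range of K. The last call ended without replicate 1 or 2 of J or replicate 1 or 3 of K (adjusted p from 0.0812 to 0.152).

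Other genes were near 0 or low in J and well expressed in K, some of them with little spread. Nitab4.5_0000464g0060 had 0.04, 0.08 and 0.02 FPKM in J, against 49.9, 53.6 and 49.4 FPKM in K (log2 fold change -5.63, SE 0.117, adjusted p = 1.06e-11 in limma's test), and lay between them in KJ at 36.8, 32.3 and 28.3 FPKM. Nitab4.5_0001567g0110 had 0, 0.04 and 0.03 FPKM in J, against 30.1, 33.9 and 31.6 FPKM in K (log2 fold change -5.01, SE 0.0935, adjusted p = 5.71e-12), and here KJ, at 30.3, 28.7 and 32.7 FPKM, was at the level of K. Nitab4.5_0005272g0010 had 1.13, 1.35 and 1.01 FPKM in J, against 29.7, 35.7 and 31.9 FPKM in K (log2 fold change -3.95, SE 0.117, adjusted p = 7.26e-10). KJ had 14.4, 13.8 and 13.6 FPKM of it and was called against both parents. Nitab4.5_0011970g0010 had 2.53, 2.59 and 3.82 FPKM in J, against 77.8, 43.6 and 88.8 FPKM in K (log2 fold change -4.11, SE 0.328, adjusted p = 2.62e-05), with 40.03, 40.42 and 65.89 FPKM in KJ. Nitab4.5_0002499g0080 had 0.05, 0.04 and 0.02 FPKM in J, against 34.0, 15.2 and 28.5 FPKM in K (log2 fold change -4.62, SE 0.817, adjusted p = 0.0207), and its call ended without any single library of J or without replicate 1 or 3 of K (adjusted p from 0.0688 to 0.108).

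Presence in 1 parent and near absence in the other made up 52 of the 155 calls, taking a mean under 0.1 FPKM as near absence. In 39 genes J was near 0, with no library above 0.13 FPKM, while K had means from 1.32 to 461.3 FPKM with a median of 5.64. In 13 genes K was near 0, with no library above 0.11 FPKM, while J had means from 1.71 to 13.7 FPKM with a median of 3.28. The lower parent was listed at 0 in all 3 libraries in 16 and 7 of these genes. Since all reads were mapped to the genome of K, less RNA in J and reads of J that do not match the K sequence cannot be told apart for a gene lower in J, and a gene missing from the K genome could not be measured.

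The 39 genes near 0 in J were all found in KJ, with every KJ library above every J library, and 34 of them had a mean of at least 1 FPKM there. The ratio of the mean FPKM of KJ over that of K had a median of 0.589 over these genes, with quartiles of 0.439 and 0.845 and a range of 0.307 to 1.19. In 26 of the 39 genes it lay from 0.25 to 0.75, and in the other 13 above 0.75. Of the 13 genes near 0 in K, 7 had a mean under 0.1 FPKM in KJ and 4 were listed at 0 in every KJ library, whereas 4 had at least 1 FPKM. The ratio of KJ over J was under 0.25 in 9 of the 13 genes, from 0.25 to 0.75 in 3 and above 0.75 in 1. These ratios share the parental libraries with the calls and were not tested against each other.

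Nitab4.5_0000245g0270 was the most abundant of the genes found in J and not in K. It had 12.3, 10.6 and 18.2 FPKM in J and was listed at 0 in every library of K (adjusted p = 4.46e-06 in limma's test), and it was listed at 0 in every library of KJ and GJ as well, while G had 19.6, 17.4 and 7.68 FPKM. Nitab4.5_0014353g0010 had 5.15, 7.27 and 10.4 FPKM in J and was listed at 0 in all libraries of K, KJ and G (adjusted p = 3.00e-06 between J and K), while GJ had 4.82, 3.36 and 2.74 FPKM. Nitab4.5_0007178g0020 had 6.52, 7.71 and 7.35 FPKM in J, against 0.01, 0.01 and 0 FPKM in K (log2 fold change 3.02, SE 0.210, adjusted p = 4.46e-06). It stayed at 0 to 0.12 FPKM in KJ, while G had from 6.07 to 9.93 FPKM and GJ from 5.43 to 10.6 FPKM. J is the pollen parent of both hybrids, and these 3 genes of J were at or near 0 in all 3 libraries of KJ, and the first in GJ too. In contrast, Nitab4.5_0003364g0010, chosen after its values were seen, had 3.56, 4.16 and 3.49 FPKM in J, was listed at 0 in K, and was found in KJ at 1.07, 1.28 and 1.17 FPKM.

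**Figure D3:**
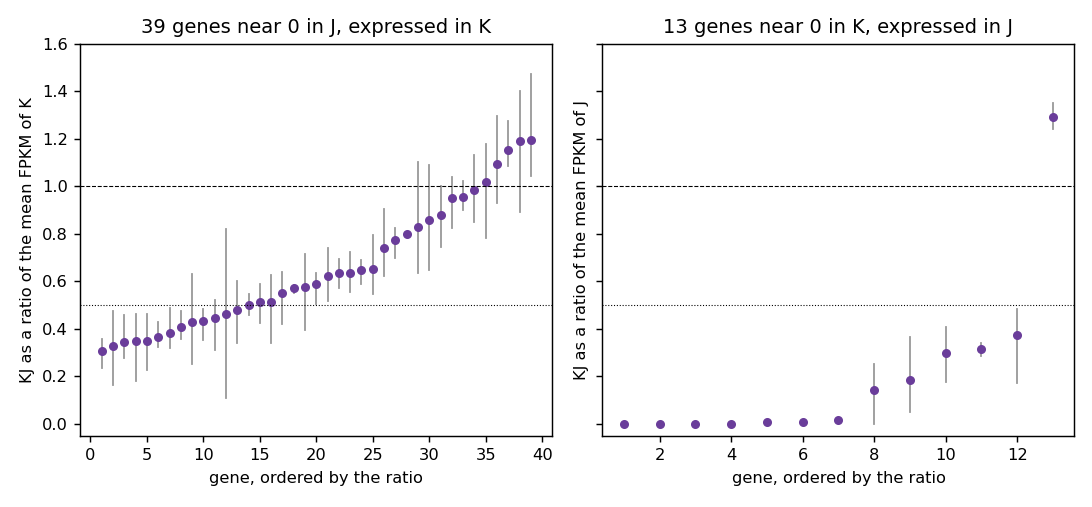
Level of KJ as a ratio of the mean FPKM of the expressing parent, for the 39 called genes with a mean under 0.1 FPKM in J (left) and the 13 with a mean under 0.1 FPKM in K (right). Points are the mean of KJ and vertical lines run from its lowest to its highest library, and the dotted and dashed lines mark ratios of 0.5 and 1. All points on the left lie above 0.3, while 7 of the 13 points on the right lie at or close to 0. The FPKM are as deposited and not scaled for the lower level of KJ over all genes.

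The other 103 called genes had a mean of at least 0.1 FPKM in both parents, 39 of them higher and 64 lower in J, with median log2 fold changes of 1.38 and -1.42. Over all called genes above 0 in a library of both parents the medians were 1.56 for 45 genes higher in J and -1.81 for 87 genes lower in J, and the largest differences were those of Nitab4.5_0013316g0010 and Nitab4.5_0003626g0010.

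Across the 155 called genes, KJ lay more often near K than near J. Its mean on the log2 scale was nearer to K in 113 genes and nearer to J in 42. The share nearer to K was 73.1% of the genes higher in J and 72.8% of the genes lower in J. On this scale a level at the middle in FPKM lies nearer to the higher parent, most of all where the other is near 0. Among called genes with at least 0.1 FPKM in both parents, KJ was nearer to K in 27 of 39 higher in J. Among those lower in J it was nearer to K in 37 of 64. Over all genes tested the mean of KJ was nearer to K in 53.5%. As a fraction of the way from K, set to 0, to J, set to 1, the level of KJ had a median of 0.131 for the genes higher in J and 0.252 for the genes lower in J. The 3 libraries of KJ lay between the ranges of J and K in 53 genes, overlapped K alone in 60 and overlapped J alone in 23. They lay above both parents in 7 genes and below both in 12. Over all genes tested, 0.246% had KJ between the parents, which needs parental libraries that do not overlap, 8.83% had KJ above both and 34.1% had KJ below both.

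KJ as a whole had lower FPKM than its parents. The median difference over all genes was -0.24 on the log2 scale against J and -0.27 against K, and it was -0.02 and 0.00 after median-of-ratios scaling. With that scaling KJ lay between the parents in 52 of the 155 genes (33.5%), above both in 16 (10.3%) and below both in 8 (5.16%). Over all genes tested these shares were 0.263%, 18.7% and 18.1% with the same scaling. The mean of KJ was then nearer to K in 115 of the 155 genes, 74.2%, against 60.3% of all genes tested. The share nearer to K then differed by direction, at 63.5% of the genes higher in J and 79.6% of the genes lower in J.

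By the test and the fold limit, KJ was called against J in 99 of the 155 genes and against K in 37. A missing call does not show equal levels. In Nitab4.5_0000464g0060 KJ differed from K by -0.64 (adjusted p = 0.00252 in limma's test), under the fold limit. Without that limit 73 genes were called higher and 133 lower in J. Of these, KJ was called against J in 154 and against K in 105. The comparisons of KJ share their parental libraries with the comparison of J with K, and over all genes tested KJ was called against J in 11.9% and against K in 9.24%. KJ was called against J only in 85 genes, against K only in 23, against both in 14 and against neither in 33. Of the 14 genes called against both parents, 10 lay between them, 5 in each direction of J against K, 1 lay above both and 3 below. KJ was called higher than the middle parent, the mean of J and K on the log2 scale, in 34 genes, 31 of which were lower in J. It was called lower than the middle parent in 20 genes, 15 of which were higher in J. The share of all genes tested that was called against this middle is not given, so these counts have no background. Over all genes tested the median difference of KJ from this middle was -0.25 on the log2 scale. The middle on the log2 scale lies below the middle in FPKM, most of all for a gene near 0 in 1 parent. Nitab4.5_0003626g0090, at 0 in J and with a ratio of KJ over K of 0.573, was called higher by 1.15 (adjusted p = 0.0442 in limma's test). A call against this middle thus does not show a departure from the middle in FPKM.

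**Figure D4:**
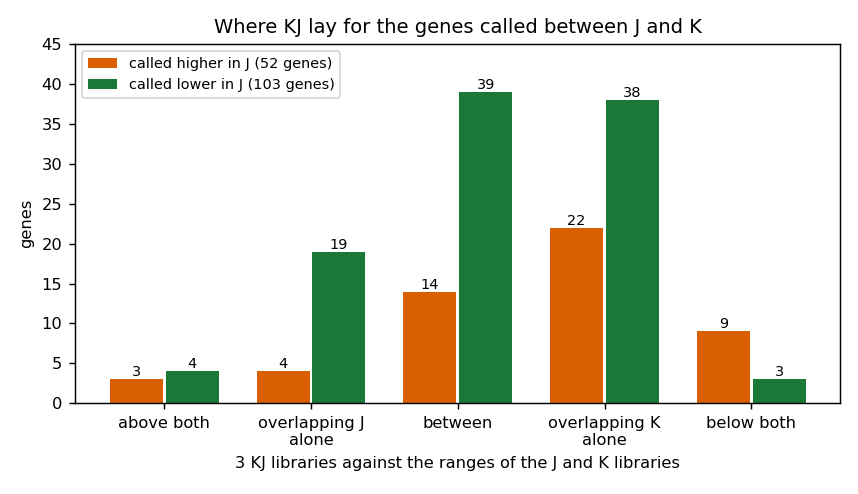
Number of called genes by the position of the 3 KJ libraries against the ranges of the 3 J and the 3 K libraries, for the 52 genes higher in J and the 103 genes lower in J. The positions between the parents (14 and 39 genes) and overlapping K alone (22 and 38 genes) hold most genes in both directions.

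Levels beyond both parents were found in few of the called genes. Nitab4.5_0004862g0060 had 27.4, 35.1 and 42.2 FPKM in KJ, above 6.73, 8.23 and 7.94 FPKM in J and 18.2, 14.7 and 16.2 FPKM in K, and KJ was called higher than J (adjusted p = 1.30e-05 in limma's test) and than K (adjusted p = 9.83e-04). Nitab4.5_0009488g0010 had 62.98, 60.13 and 68.8 FPKM in KJ, above 11.4, 12.6 and 11.6 FPKM in J and 37.97, 23.05 and 48.39 FPKM in K, and its log2 difference from K of 0.85 missed the fold limit. Nitab4.5_0012336g0020 had 0.940, 1.19 and 1.04 FPKM in KJ, below 27.1, 9.16 and 22.4 FPKM in J and 6.01, 5.15 and 6.04 FPKM in K, and Nitab4.5_0003149g0030 had 0.510, 1.59 and 1.22 FPKM in KJ, below 10.7, 8.04 and 11.02 FPKM in J and 3.91, 4.62 and 2.88 FPKM in K. KJ was called against both parents in these last 2 genes. Their calls between J and K were the less firm ones. That of Nitab4.5_0012336g0020 (log2 fold change 1.49, adjusted p = 0.0275) ended without replicate 1 or 3 of J or any library of K (adjusted p from 0.0857 to 0.168). That of Nitab4.5_0003149g0030 (1.19, adjusted p = 0.0306) ended with the replicate block (adjusted p = 0.0865) and without replicate 1 or 3 of J or of K (adjusted p from 0.110 to 0.187), and that of Nitab4.5_0004862g0060 fell under the fold limit without replicate 1 of J or of K, at -0.93 at its smallest.

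G and GJ, which the comparison of J with K did not use other than for its estimate of the spread, were placed against the same parents. The mean of G was nearer to K in 97 of the 155 genes, 62.6%, against 43.7% of all genes tested. That of GJ was nearer to K in 64, 41.3%, against 57.6%. The mean of GJ takes in its replicate 1, which stood apart in genes given below, and the share without that library was not computed. Of the 39 genes near 0 in J, G had at least 1 FPKM in 32 and was under 0.1 FPKM in 7, and its ratio over K had a median of 0.903. The libraries of GJ stood apart from each other in many of these genes: replicate 1 was under 0.1 FPKM in 25 of the 39, and in 22 of these replicates 2 and 3 were both above it. In those 22 genes the adjusted p between J and K was from 0.00101 to 0.0334, whereas in the other 17 it was from 5.71e-12 to 0.00644. Without replicate 1 of GJ, a setting chosen after the data were seen, 155 genes were called between J and K and 150 of them were among the 155.

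Some called genes stood together in the ID order. In this annotation the number before the letter g names a scaffold of the K assembly and the number after it the order of genes on it, which the file itself does not state, and genes with the same first number are called an ID block here. Of the 155 called genes, 50 (32.3%) shared their block with another gene called in the same direction and 7 with a gene called in the opposite direction, while 89.6% of all tested genes shared their block with another tested gene. The last share counts any tested gene and is no background for the first, and no share due to chance was computed. The called genes lay in 115 of the 9894 blocks with a tested gene. In 15 blocks at least 2 genes were called, and in 12 of these all went the same way. Of the 2207 blocks with at least 5 tested genes, 3 had a median difference of at least 1 in size on the log2 scale and 14 of at least 0.5.

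ID block 0003626 held the largest number of calls, with 10 of its 11 tested genes lower in J. All 11 genes had every library of J below every library of K. Summed over the block, the libraries of J held 2.61, 2.89 and 1.45 FPKM, against 536.7, 689.5 and 424.7 FPKM in K, and KJ held 306.3, 278.8 and 290.6 FPKM. Besides Nitab4.5_0003626g0010, the block held Nitab4.5_0003626g0020, listed at 0 in all libraries of J, against 16.7, 17.1 and 14.9 FPKM in K (adjusted p = 0.00644 in limma's test, and 0.0649 without replicate 2 of J, replicate 2 of K and replicate 1 of G together), and Nitab4.5_0003626g0080, listed at 0 in J, against 9.38, 8.21 and 8.59 FPKM in K (adjusted p = 0.00264). Nitab4.5_0003626g0090 was listed at 0 in J, against 13.0, 12.6 and 11.9 FPKM in K (adjusted p = 0.00273), and Nitab4.5_0003626g0100 at 0, 0.06 and 0 FPKM in J, against 13.45, 15.96 and 11.56 FPKM in K (adjusted p = 0.00101). Nitab4.5_0003626g0110 kept a signal in J, with 2.45, 2.57 and 1.41 FPKM, against 12.4, 17.0 and 12.3 FPKM in K. The KJ libraries lay between J and K in 8 of the 10 called genes of the block and overlapped K alone in Nitab4.5_0003626g0080 and Nitab4.5_0003626g0110. The median ratio of KJ over K was 0.550 over the 11 genes, which is to be read against the lower level of KJ over all genes. The uncalled gene, Nitab4.5_0003626g0040, differed by -1.43 on the log2 scale (adjusted p = 0.468).

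Replicate 1 of GJ resembled J in this block, with a summed level of 1.64 FPKM, while replicates 2 and 3 held 327.4 and 341.6 FPKM and G from 615.8 to 693.0 FPKM. The calls of Nitab4.5_0003626g0110, Nitab4.5_0003626g0120 and Nitab4.5_0003626g0130 (adjusted p = 0.0275, 0.0334 and 0.0275 in limma's test) ended with the replicate block (adjusted p = 0.0585, 0.0735 and 0.0745) and without any single library of J or K (adjusted p from 0.0569 to 0.161), and that of Nitab4.5_0003626g0120 also without replicate 3 of KJ. Without replicate 1 of GJ their adjusted p was 2.83e-04, 0.00433 and 0.00284.

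The calls in ID block 0001198 were split by gene order. Of its 8 tested genes up to number g0110, 7 were lower in J, and 0 of the 16 from g0120 to g0340 were called, a boundary drawn after the values were seen. The 7 called genes summed to 0, 0.12 and 0 FPKM in J, against 81.5, 86.6 and 81.9 FPKM in K, and 75.4, 75.2 and 72.3 FPKM in KJ. Nitab4.5_0001198g0010 was listed at 0 in J, against 25.1, 27.5 and 25.8 FPKM in K (adjusted p = 0.0161 in limma's test), Nitab4.5_0001198g0100 at 0, 0.05 and 0 FPKM in J, against 19.8, 22.4 and 21.1 FPKM in K (adjusted p = 0.00411), and Nitab4.5_0001198g0060 at 0, 0.07 and 0 FPKM in J, against 17.5, 15.5 and 13.6 FPKM in K (adjusted p = 0.00338). KJ, at 28.8, 28.4 and 33.3 FPKM of Nitab4.5_0001198g0010, lay above all libraries of K, while it lay between the parents in Nitab4.5_0001198g0060 at 9.55, 11.1 and 6.16 FPKM.

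In the other stretch of block 0001198 the sums were 275.5, 328.2 and 163.4 FPKM in J, against 550.7, 598.8 and 549.1 FPKM in K. Much of this gap came from Nitab4.5_0001198g0120, with 68.5, 61.6 and 33.9 FPKM in J, against 292.9, 319.0 and 295.3 FPKM in K. Its log2 fold change of -2.51 was not called (SE 1.31, adjusted p = 0.676 in limma's test). The spread in this test took in GJ, at 0.13, 126.5 and 137.9 FPKM, so the missing call does not show equal levels in J and K. All 16 genes of this stretch had the lower mean in J, 4 of them with every J library below every K library. GJ again had a library apart: replicate 1 summed to 0.02 FPKM in the first stretch and 5.28 FPKM in the second, against 41.8 to 42.5 FPKM and 234.5 to 256.3 FPKM in the other 2 libraries. Replicate 1 of GJ was under 0.1 FPKM in 13 of the 16 genes of the second stretch. The call of Nitab4.5_0001198g0010 ended without any single library of J or without replicate 1 or 3 of K (adjusted p from 0.0559 to 0.0776), and that of Nitab4.5_0001198g0070 (adjusted p = 0.0321) ended with the replicate block (adjusted p = 0.0597) and without any single library of J, K or KJ other than replicate 2 of K (adjusted p from 0.0528 to 0.177).

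ID block 0000143 ran the other way and kept expression in both parents. Of its 42 tested genes 8 were called, all higher in J, and all lay in the stretch up to g0390, where 28 of 30 tested genes had the higher mean in J and 23 had every J library above every K library. The median difference over these 30 genes was 0.89 on the log2 scale, and it was -0.01 over the 12 genes from g0400 to g0580, none of which had parental libraries that did not overlap. This boundary was also drawn after the values were seen. Besides the abundant Nitab4.5_0000143g0170 and Nitab4.5_0000143g0390, Nitab4.5_0000143g0050 had 45.5, 51.1 and 43.4 FPKM in J, against 15.4, 21.4 and 15.7 FPKM in K (log2 fold change 1.38, SE 0.167, adjusted p = 0.00111 in limma's test). Nitab4.5_0000143g0180 had 31.9, 37.5 and 33.7 FPKM in J, against 13.64, 16 and 13.71 FPKM in K (1.19, SE 0.141, adjusted p = 8.78e-04), and Nitab4.5_0000143g0310 had 33.8, 36.1 and 33.6 FPKM in J, against 15.2, 16.6 and 15.0 FPKM in K (1.10, SE 0.142, adjusted p = 0.00205).

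In this stretch of block 0000143 the mean of KJ was nearer to K than to J in 28 of the 30 genes, and of the 8 called genes KJ overlapped K alone in 5 and lay below both parents in 3. Summed over the 30 genes, KJ held 1201, 1254 and 1399 FPKM, less than J with 3290, 4376 and 3526 FPKM and K with 1715, 2157 and 1498 FPKM, a gap to K that is to be read against the lower level of KJ over all genes. GJ, with the same pollen parent, held from 2647 to 2934 FPKM. The call of Nitab4.5_0000143g0120 (adjusted p = 0.0232 in limma's test) ended without any single library of J or without replicate 1 or 3 of K (adjusted p from 0.0699 to 0.129). Those of Nitab4.5_0000143g0040 and Nitab4.5_0000143g0060 (adjusted p = 0.0496 and 0.0366) ended without 7 of the 9 libraries of J, K and KJ each (adjusted p from 0.0531 to 0.271), and the second also with the replicate block (adjusted p = 0.0825).

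**Figure D5:**
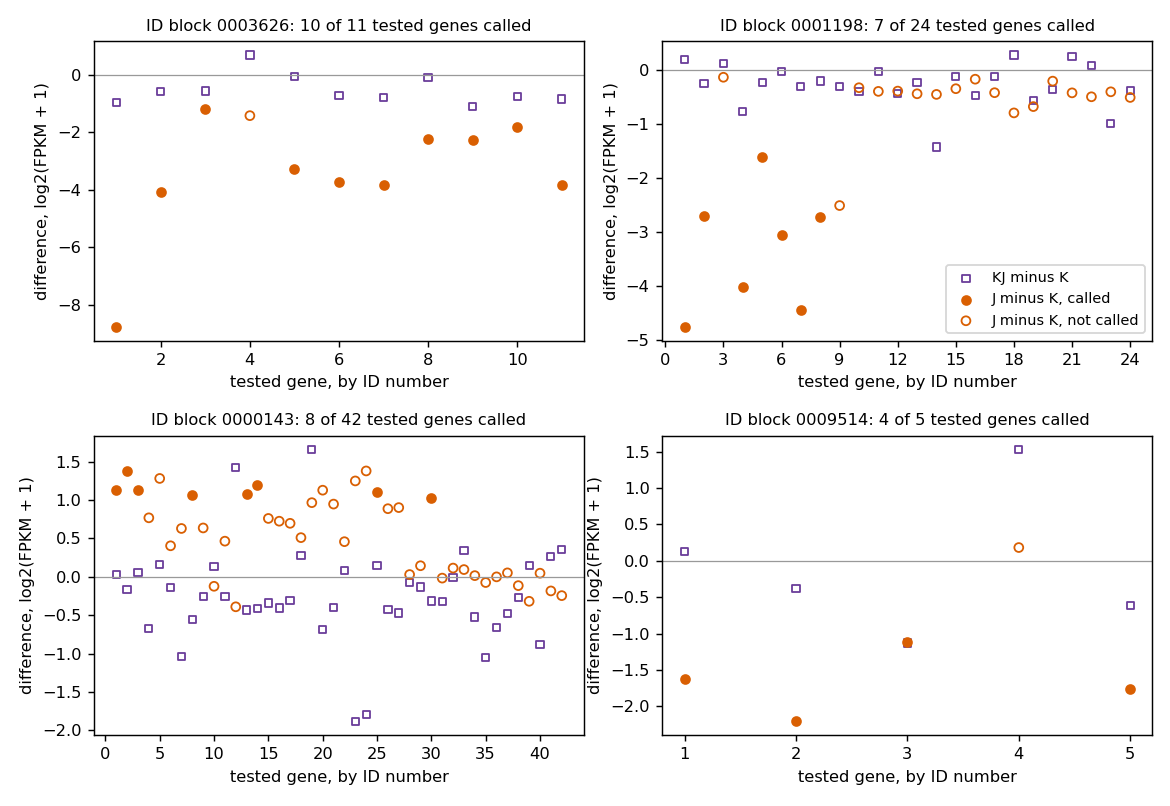
Difference from K on the log2(FPKM + 1) scale for the tested genes of the 4 ID blocks with the most calls, in the order of their ID numbers, with circles for J minus K (filled where called) and squares for KJ minus K. The called genes of blocks 0003626 and 0001198 lie far below 0 in J and higher in KJ, while in block 0000143 J lies above 0 in 28 of the first 30 genes and about 0 in the 12 after them.

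ID block 0009514 had 4 of 5 tested genes lower in J, with differences from -2.20 to -1.12 on the log2 scale for those called. Nitab4.5_0009514g0050, the most abundant of them, had 7.40, 6.89 and 3.71 FPKM in J, against 35.6, 37.2 and 20.8 FPKM in K (adjusted p = 0.0275 in limma's test), and 21.06, 20.03 and 28.46 FPKM in KJ. Nitab4.5_0009514g0060 was the gene of this block in which KJ stayed low, with 0.66, 0.86 and 0.29 FPKM beside 0.64, 0.51 and 0.65 FPKM in J, against 2.23, 2.65 and 2.53 FPKM in K. The choice of this pair was made with its values known.

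Of the genes that the study singled out for root growth in the hybrids, 17 were examined here, 9 named in its text and 8 hormone genes. None of these was called between the parents. The 8 are a part of the study's hormone genes, and those of cytokinin, abscisic acid and ethylene signalling were not looked up. Of 17 such genes 16 passed the filter on low values, and 0 of the 16 were called, beside 0.438% of all genes. The 3 protein kinase genes Nitab4.5_0011528g0020, Nitab4.5_0003282g0020 and Nitab4.5_0004384g0070, which belong to a class of enzymes that pass on signals by phosphorylation, had between 1.72 and 2.74 FPKM in the libraries of J, against 1.5 to 9.86 FPKM in those of K, where replicate 2 was the lowest in each. Their log2 fold changes were -0.61, -0.72 and -0.83 with adjusted p from 0.646 to 0.791 in limma's test. KJ had from 12.7 to 26.6 FPKM of them, above all libraries of both parents.

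Nitab4.5_0000119g0080, annotated as lysine-tRNA ligase, the enzyme that loads lysine onto its tRNA, had 27.6, 31.0 and 31.4 FPKM in J, against 42.2, 24.7 and 88.0 FPKM in K (adjusted p = 0.785 in limma's test), and 177.7, 172.5 and 196.5 FPKM in KJ. In all 9 genes that the study names in its text the mean of J was below that of K, by 0.34 to 0.89 on the log2 scale, and replicate 2 was the lowest library of K in each. In 2 of the 9 every library of J lay below every library of K, which held for 10.4% of all genes tested. All 9 had every KJ library above both parents and were called against each, but the study had chosen them on these same libraries. Without replicate 2 of K, 0 of the 9 were called between J and K.

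Of the 8 hormone genes examined, 7 were tested and 0 were called between the parents, with adjusted p from 0.527 to 0.968 in limma's test. Their IDs and names were read from a picture of the study's pathway and could not be checked against a table. Nitab4.5_0000562g0110, listed there as a GH3 gene of the family that joins auxin to amino acids, had 11.96, 10.15 and 10.07 FPKM in J, against 5.86, 8.87 and 6.02 FPKM in K, with parental libraries that did not overlap, as in 15.4% of all genes, and a log2 difference of 0.58 that did not pass the test (adjusted p = 0.527 in limma's test). Its level in KJ, at 2.48, 3.19 and 1.66 FPKM, lay below both. Nitab4.5_0000063g0100, a SAUR gene of the early auxin response, had 6.48, 31.1 and 9.12 FPKM in J, against 2.93, 12.3 and 1.82 FPKM in K, with replicate 2 the highest library of both parents, and a log2 difference of 1.35 (adjusted p = 0.590), which was called without replicate 2 of J, replicate 2 of K and replicate 1 of G together (adjusted p = 0.038). The AUX1 genes Nitab4.5_0001889g0140 and Nitab4.5_0009144g0020, which code for carriers that take up auxin into the cell, differed by -0.22 and 0.36 on the log2 scale (adjusted p = 0.889 and 0.616). Nitab4.5_0003771g0010, a PR-1 gene known as a marker of the salicylic acid response, had 0, 0.12 and 0.51 FPKM in J, against 0.28, 1.22 and 1.12 FPKM in K, and so did not pass the filter, while KJ had 19.5, 29.0 and 65.1 FPKM.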

How the data were processed

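Root RNA of 15 libraries was sequenced by the authors (TRIzol, DNase I, paired reads), who dropped low-quality reads and those under 25 nt, aligned the remainder to the K326 genome and estimated gene abundances. The study names Tophat2 and RSEM, and the labels list HISAT2, StringTie and RSEM, all without versions. The deposited values are FPKM with 2 decimals, so no test on counts was run. Their sums, from 801594 to 827438 per library, do not separate FPKM from TPM with features left out. The depth of a library is not given by the file, and no counting error could be computed.

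Values were taken as log2(FPKM + 1). Tested were the genes at 1 FPKM or more in 3 or more of the 6 J and K libraries. Means of 5 genotypes were fitted to all 15 libraries with limma 3.58.1 in R 4.3.3 (trend and robust options, no covariate, 10 residual degrees of freedom), and each contrast had a two-sided moderated test in limma. The p-values were adjusted (Benjamini-Hochberg) across the whole set of tested genes. Calls needed an adjusted p up to 0.05 and a log2 fold change of 1 or more in size, which is the fold limit of the study. Exact permutation tests were used for the measures per library. On simulated data for J against K with 35368 genes, 80.5% of 200 genes changed by 1.5 on the log2 scale were recovered, with 4 false calls. Of 200 changed by 2.5, 94% were recovered, with 10 false calls. The changed genes were drawn from those with a mean level of about 5 FPKM or more. The noise was normal and independent between libraries, with no library standing apart. These shares therefore do not carry over to genes of lower level or to the libraries that stood apart in the data. Python 3.11.15 with pandas and matplotlib was used for counts and plots.

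Named genes are, in each direction and with parental libraries that do not overlap, the 10 called genes with the largest fold change at a mean of at least 5 FPKM in the higher parent and the 3 of highest abundance. To these come the 2 called genes farthest above and the 2 farthest below both parents in KJ. The 2 with the largest fold change in each direction with KJ between the parents were added. Also named are 17 genes taken from the study's text and hormone pathways, and the called genes of the 3 ID blocks with the most calls in 1 direction. Genes named outside this rule are marked. The comparison, the lists and the rules were chosen with earlier results of these data known.

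The groups share replicate numbers. Deviations from the group means of equal numbers in J and K correlated at 0.235, 0.570 and 0.299, all above 0.1, so a replicate block was run as an alternative. Unequal numbers of J and K correlated from -0.488 to 0.386, and J replicate 1 correlated most with K replicate 3. Equal numbers of KJ and a parent correlated from -0.168 to 0.157. Whether the numbers pair the libraries is thus not known, and the main fit did not use them. Alternatives were another pseudocount, other filters, scalings, thresholds and fits, a replicate block, and leaving out libraries. IDs matched in the RefSeq gene table numbered 0, so no names, positions or sequences are given.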

Additional observations from a re-analysis of the deposited data

How the results depend on the processing

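With the replicate number as a block, 44 genes were called higher and 97 lower in J, 135 of them among the 155, and KJ was called against J in 91, against K in 35 and lay between the parents in 50. The block ended the calls of the 7 named genes given with their blocked p and changed no other named call. With a mean of at least 5 FPKM as the filter, 27 genes were called higher and 43 lower in J, and KJ was called against J in 53 of these, against K in 16, and lay between the parents in 21, with fewer genes tested. With unadjusted p, 255 and 291 genes were called, and KJ against J in 308 and against K in 170. Without a fold limit 73 genes were called higher and 133 lower in J, and KJ was called against J in 154 of these and against K in 105. Without J replicate 2, K replicate 2 and G replicate 1 together, 125 genes were called higher and 105 lower in J. KJ was called against J in 182 of these, and the cause was not tested. This setting ended 16 named calls, among them those of Nitab4.5_0003626g0020, Nitab4.5_0003626g0140, Nitab4.5_0001198g0030 and Nitab4.5_0001198g0090 (adjusted p = 0.0649, 0.0762, 0.0686 and 0.0699 in limma's test), which no other alternative ended. Leaving out 1 library of J, K or KJ gave from 34 to 58 genes higher and from 73 to 131 lower in J, KJ called against J in 74 to 132 and against K in 22 to 46, and KJ between the parents in 48 to 67. The other pseudocount, filters, scalings and fits kept these counts within 1.5 times. No called fold change of a named gene turned its direction under the alternatives, whereas that of Nitab4.5_0004473g0020, which was not called, was -0.18 and reached 0.09 without replicate 1 of K, and 22 of the 46 called named genes stayed called under each of them. Leaving out a library leaves 2 in its group, whose spread is taken from the other groups. A fit of the 6 libraries of J and K alone called 46 and 84 genes with 4 residual degrees of freedom.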
